A study of Mus musculus with 12 samples.

Results

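Interferon-stimulated antiviral genes are the effector end of the type I interferon response, and 37 of them were followed here across salt and lipopolysaccharide treatments of a mouse macrophage line. The 37 genes were taken as a given list of names, which was chosen with earlier results of these data known. All 37 had probes, and 35 passed the filter on low signal, out of 13733 genes that passed it on the whole array. RAW264.7, the only cells used, is a virus-transformed mouse macrophage line, so every value describes 1 line in culture. The 12 one-colour arrays fell into 4 groups of 3, all taken at 24 h. HS + LPS cells received 40 mM added NaCl together with 10 ng/ml lipopolysaccharide (LPS, a bacterial cell wall component), and NS + LPS cells received LPS without the added salt. HS cells received the added salt alone, and NS cells received neither. The labels do not spell out the letters HS and NS, which are read here from the stated treatment as cells with and without the added salt. Whether the 3 arrays of a group came from separate cultures is not stated, so a p-value here reflects array-to-array spread alone, which may be technical.

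Macrophages sense LPS through the receptor Tlr4, whose adaptor branch through Ticam1 and the kinases Tbk1 and Ikbke leads to transcription of interferon beta. Secreted interferon binds the Ifnar1 and Ifnar2 receptor chains, and the kinases Jak1 and Tyk2 then activate a transcription factor containing Stat2 and Irf9, which binds interferon-stimulated response elements of the antiviral genes. Resting macrophages also make a small amount of interferon that keeps these genes at a low basal level, often called tonic interferon tone.

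Signals are given as relative signals, the processed intensity of the brightest probe of a gene divided by the 75th percentile of its array, and compared only within a gene. Differences are log2 differences from one limma fit of all 12 arrays, with p-values adjusted over the 13733 genes, and a gene is called where that adjusted p is below 0.05. The 75th percentile itself was 411 to 438 intensity units on the HS + LPS arrays, 621 to 635 on NS + LPS, 613 to 656 on HS and 641 to 783 on NS arrays. Replicates within a group correlated at a Pearson r of 0.996 to 0.999 over the tested genes. The NS and HS arrays and 2 of the NS + LPS arrays lay on 1 slide. NS + LPS array 3 was on another slide of that scan day. A further slide, of a later scan day, held the 3 HS + LPS arrays and no others. HS + LPS and its slide and scan day therefore cannot be told apart in any comparison that uses those arrays. The 8 macrophage markers examined were well above background on all 12 arrays, with a summed relative signal of 757 to 797 in HS + LPS, 602 to 634 in NS + LPS, 674 to 751 in HS and 694 to 732 in NS cells. These markers did not move together. In HS + LPS against NS + LPS cells 4 were called higher and 3 lower, with log2 differences of -1.42 to 0.60. Of all tested genes 26.2% were called higher and 31.4% lower in that comparison. The epithelial markers Epcam, Krt8 and Krt18, the B cell marker Ms4a1 and the neutrophil markers Ly6g, S100a9 and Mpo were not well above background on any array. The remaining neutrophil marker, S100a8, was well above background on 10 arrays (all but HS arrays 2 and 3) and the B cell marker Cd79a on 9. The neutrophil markers summed to 0.442 to 0.590 in HS + LPS, 0.905 to 1.03 in NS + LPS, 0.0814 to 0.121 in HS and 0.114 to 0.134 in NS cells. S100a8 rose by 3.01 with LPS and added salt and by 3.52 with LPS alone, and fell by 1.03 in HS + LPS against NS + LPS and by 0.53 in HS against NS cells, the directions that most of the antiviral genes took. Its part in the results below was not tested. Some genes kept as markers of other cells were well above background on all 12 arrays: Cd3e and Cd4 (T cells), Itgax and Siglech (dendritic cells), and Pecam1 and Kdr (endothelial cells).

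The response element has a core of GAAA, any 2 bases and GAAA again, which reads TTTC, any 2 bases and TTTC on the other strand. RefSeq promoter windows, running from 250 bases before to 50 after the start of a gene, were at hand for 30 of the 37 genes. The core was found on either strand, overlapping matches included, in the windows of 10 of these 30 genes (33.3%), against 1079 of all 27025 genes with a window (3.99%). The 10 genes were Bst2, Ddx60, Ifit1, Ifit3, Ifitm3, Isg15, Lgals9, Rsad2, Stat2 and Tdrd7. A match is a description of letters and not of a bound site, and its absence says only that these letters are not in that window. The 160 bases just before the start are shown for 6 of them, chosen to span the ways the group responded to salt, with the core in capitals, 5′ to 3′ on the strand of the gene, in the GRCm38.p6 build. Rsad2 (chr12:26456453-26456612, minus strand), Ifit1 (chr19:34640729-34640888, plus strand) and Ifit3 (chr19:34583369-34583528, plus strand) read as follows.
Rsad2: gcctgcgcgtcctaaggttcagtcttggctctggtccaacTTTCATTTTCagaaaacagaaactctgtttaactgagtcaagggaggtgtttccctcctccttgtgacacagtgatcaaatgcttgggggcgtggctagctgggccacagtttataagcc
Ifit1: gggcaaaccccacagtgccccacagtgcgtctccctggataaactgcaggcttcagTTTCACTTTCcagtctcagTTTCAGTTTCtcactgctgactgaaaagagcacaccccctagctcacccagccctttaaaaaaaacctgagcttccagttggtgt
Ifit3: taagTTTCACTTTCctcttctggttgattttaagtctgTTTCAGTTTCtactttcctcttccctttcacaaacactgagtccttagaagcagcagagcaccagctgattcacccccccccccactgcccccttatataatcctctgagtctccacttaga
Isg15 (chr4:156200819-156200978, minus strand), Lgals9 (chr11:78984925-78985084, minus strand) and Bst2 (chr8:71537473-71537632, minus strand) read as follows.
Isg15: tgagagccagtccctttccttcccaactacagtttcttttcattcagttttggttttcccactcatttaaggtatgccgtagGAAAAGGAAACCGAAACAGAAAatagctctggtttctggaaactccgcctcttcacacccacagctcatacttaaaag
Lgals9: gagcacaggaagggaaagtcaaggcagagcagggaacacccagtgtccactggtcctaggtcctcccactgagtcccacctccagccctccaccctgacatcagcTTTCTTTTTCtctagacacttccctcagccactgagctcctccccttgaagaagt
Bst2: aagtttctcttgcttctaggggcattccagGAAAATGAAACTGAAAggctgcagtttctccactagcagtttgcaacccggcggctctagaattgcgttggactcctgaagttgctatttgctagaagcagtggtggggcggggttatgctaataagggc
Within these 160 bases Isg15 held 3 overlapping cores, Bst2 held 2 overlapping ones, and Ifit1 and Ifit3 held 2 separate ones each, while Rsad2 and Lgals9 held 1 each.

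LPS raised nearly the whole group. In NS + LPS against NS cells, 33 of the 35 tested genes rose (94.3%), none fell, and 2 were not called, where 28.7% of all tested genes rose. The median log2 difference was 2.52, a 5.74-fold rise, against -0.034 over all tested genes, and 32 genes rose at least 2-fold, where 6.69% of all tested genes did. In HS + LPS against HS cells, 34 of 35 rose (97.1%) and 1 fell, where 30.5% of all tested genes rose and 41.8% fell. The median there was 2.87, a 7.31-fold rise, against -0.11 over all tested genes, and 31 genes rose at least 2-fold, where 8.19% of all tested genes did. In bulk RNA, fewer cells expressing a gene and less RNA per cell cannot be told apart.

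**Figure D1:**
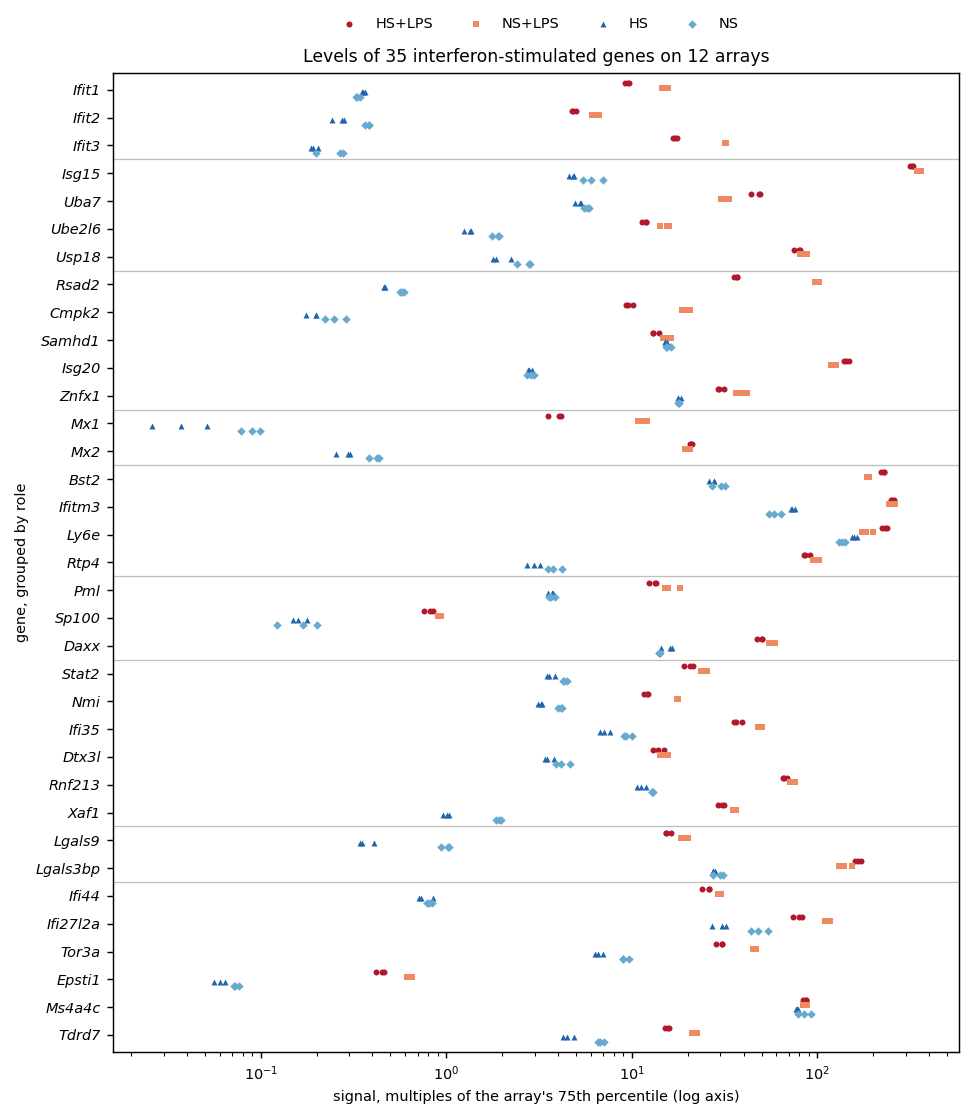
Relative signal (multiples of the array's 75th percentile, log axis) of the 35 tested antiviral genes, grouped by role, with a symbol for each array and a colour and shape for each group (HS + LPS, NS + LPS, HS, NS). The LPS-treated groups lie above their untreated counterparts for all genes except Samhd1 and, without added salt, Ms4a4c. For Ly6e, and for Ms4a4c with added salt, the gap is narrow.

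The largest response without added salt belonged to Rsad2 (viperin), a radical-SAM enzyme that makes a chain-terminating nucleotide from CTP. With added salt Mx1 and Ifit3 had larger differences in the limma fit of all 12 arrays, but the ranges over the processing settings tried overlapped. They were 4.80 to 6.98 for Mx1, 5.80 to 6.60 for Ifit3 and 5.85 to 6.40 for Rsad2. The relative signal of Rsad2 was 35.5, 36.7 and 36.6 in HS + LPS cells and 102, 96.6 and 98.7 in NS + LPS cells, against 0.459, 0.460 and 0.466 in HS cells and 0.580, 0.588 and 0.563 in NS cells. All 4 groups were separated from each other, with NS + LPS highest, HS + LPS below it, and the unstimulated groups far below. LPS raised it 172-fold without added salt (log2 difference 7.42 ± 0.035, SE, limma adjusted p = 2.1e-15) and 78.6-fold with it (6.30, adjusted p = 1.08e-14). Cmpk2, the neighbouring gene on chromosome 12, encodes a mitochondrial nucleotide kinase. It read 9.55, 10.2 and 9.31 in HS + LPS and 19.97, 18.6 and 20.6 in NS + LPS cells, against 0.199, 0.176 and 0.197 in HS and 0.222, 0.287 and 0.247 in NS cells, the same order of groups as for Rsad2. It rose by 6.30 on the log2 scale without and 5.67 with added salt.

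Ifit3, a partner of the RNA-binding protein Ifit1, read 17.2, 17.6 and 16.7 in HS + LPS and 32.4, 31.8 and 31.6 in NS + LPS cells, against 0.202, 0.186 and 0.190 in HS and 0.199, 0.277 and 0.266 in NS cells. The unstimulated HS and NS replicates overlapped, while the LPS-treated groups did not. Its rise with LPS was 7.03 without and 6.48 with added salt. Ifit1, which binds RNA with incompletely methylated caps, read 9.22, 9.52 and 9.59 in HS + LPS and 15.7, 14.6 and 15.3 in NS + LPS cells, against 0.362, 0.353 and 0.356 in HS and 0.326, 0.331 and 0.341 in NS cells. Here HS + LPS lay clearly below NS + LPS and the unstimulated groups lay close together, HS just above NS. Ifit2 rose by 4.09 and 4.19. Mouse Ifit3 has a near-identical neighbour, Ifit3b, which the Ifit3 probe may not separate.

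Mx1, an interferon-induced GTPase of the nucleus that is defective in many inbred mouse strains, read 4.03, 4.15 and 3.54 in HS + LPS and 12.04, 10.8 and 11.6 in NS + LPS cells, against 0.0516, 0.0370 and 0.0259 in HS and 0.0898, 0.0992 and 0.0783 in NS cells. It was well above background on only 1 of the 3 HS arrays, so its level there is near the limit of detection. It rose by 7.02 ± 0.20 without added salt. With it the difference was 6.73, and between 4.80 and 6.98 over the processing settings tried. Its cytoplasmic relative Mx2 read 20.7, 20.9 and 21.00 in HS + LPS and 20.2, 19.3 and 20.5 in NS + LPS cells, against 0.296, 0.253 and 0.304 in HS and 0.436, 0.421 and 0.381 in NS cells. For Mx2 the LPS-treated groups nearly met, with every HS + LPS array just above every NS + LPS array, whereas every HS array lay below every NS array. LPS raised it by 5.60 without and 6.20 with added salt.

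Isg15, the ubiquitin-like protein that is attached to other proteins during the response, read 325, 326 and 314 in HS + LPS and 351, 346 and 362 in NS + LPS cells, against 4.57, 4.79 and 4.90 in HS and 6.96, 6.04 and 5.49 in NS cells. LPS raised it by 5.85 ± 0.074 without and 6.08 with added salt, and HS lay below NS without overlap. The conjugation machinery rose with it. Uba7, its activating enzyme, rose by 2.48 and 3.19, and Ube2l6, its conjugating enzyme, by 3.03 and 3.15. Usp18, the protease that removes Isg15 and also restrains the interferon receptor, read 80.1, 79.6 and 74.7 in HS + LPS and 85.5, 81.1 and 87.8 in NS + LPS cells, against 1.86, 1.79 and 2.23 in HS and 2.81, 2.79 and 2.40 in NS cells. Its LPS-treated groups lay close together, each HS + LPS array just under the lowest NS + LPS array, and HS lay below NS. It rose by 4.99 without and 5.32 with added salt.

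**Figure D2:**
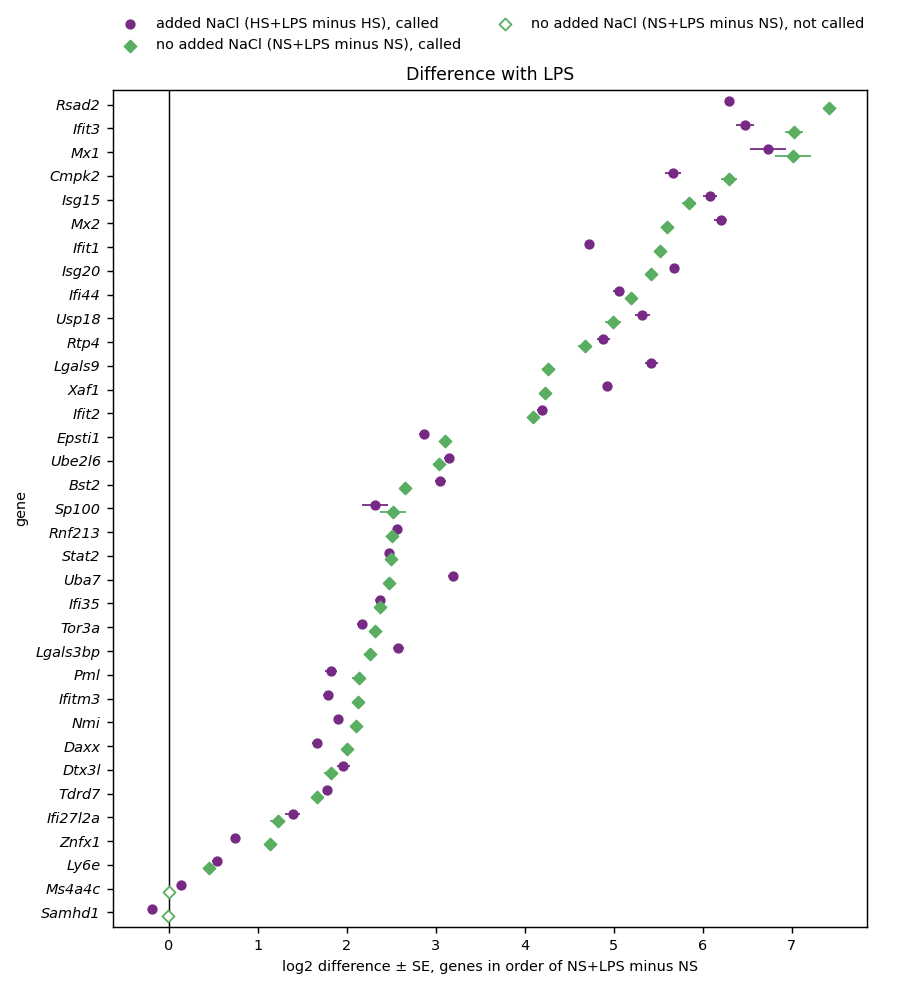
Log2 difference with LPS, with its SE, of the 35 tested antiviral genes, in order of the difference without added salt; circles are HS + LPS minus HS and diamonds NS + LPS minus NS, and an open diamond marks a gene not called. The rises span 0.45 for Ly6e to 7.42 for Rsad2 without added salt among the called genes, and the open diamonds are Samhd1 and Ms4a4c.

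Most other called members rose by less. Isg20, an exonuclease, rose by 5.42 without and 5.67 with added salt, Ifi44 by 5.20 and 5.05, and Rtp4, a receptor chaperone, by 4.67 and 4.88. Among membrane proteins, the tether Bst2, which holds budding virions at the surface, rose by 2.66 and 3.05, and Ifitm3, which blocks fusion in endosomes, by 2.12 and 1.79. The smallest called rise without added salt was that of the lipid-anchored surface protein Ly6e, at 0.45 and 0.54. The nuclear body genes Pml, Sp100 and Daxx rose by 2.13, 2.52 and 2.01 without added salt, and by 1.83, 2.32 and 1.66 with it. Lgals9 (galectin-9) and Lgals3bp, a secreted binding partner of galectins, rose by 4.27 and 2.26 without added salt and by 5.42 and 2.58 with it.

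Stat2, a subunit of the factor that binds the response element, read 21.3, 19.2 and 20.5 in HS + LPS and 23.5, 25.3 and 24.4 in NS + LPS cells, against 3.83, 3.60 and 3.51 in HS and 4.32, 4.44 and 4.24 in NS cells. The groups were ordered NS + LPS, HS + LPS, NS and HS with no overlap. Its rise with LPS was 2.49 without and 2.48 with added salt. The other genes of signalling and ubiquitin transfer (Nmi, Ifi35, Dtx3l, Rnf213 and Xaf1) rose by 1.82 to 4.22 without and by 1.90 to 4.92 with added salt. The upper ends are those of the brightest Xaf1 probe, and the other passing Xaf1 probe rose by 2.68 without and 2.60 with added salt.

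Samhd1 and Ms4a4c did not follow the group in their brightest probes. Samhd1, which hydrolyses deoxynucleotides, read 13.97, 12.9 and 13.03 in HS + LPS and 14.8, 15.6 and 16.3 in NS + LPS cells, against 15.01, 15.5 and 15.01 in HS and 16.3, 15.4 and 15.3 in NS cells. It was the 1 gene called as a fall with LPS, and the groups lay close together. It had differences of -0.013 without (adjusted p = 0.828) and -0.19 with added salt (adjusted p = 0.00502) from its brightest probe, at chr2:156923265-156923324 in the mm9 coordinates of the scanner files. Probes at chr2:156930644-156931997 and chr2:156945894-156945953 rose by 1.83 and 1.98 without and by 1.71 and 1.52 with added salt. Ms4a4c, a membrane-spanning protein, had differences of 0.0026 without (adjusted p = 0.971) and 0.14 with added salt (adjusted p = 0.0367) from its brightest probe (chr19:11500839-11500898). The call with added salt was lost without HS array 1, 2 or 3 or HS + LPS array 2 or 3 (adjusted p = 0.0744, 0.0856, 0.0645, 0.0894 and 0.0908). A dimmer probe at chr19:11493486-11493545 was well above background on 1 HS + LPS array, on all 3 NS + LPS arrays and on no HS or NS array, so no difference is given for it. The probes are shown because their readings part, with an alternating TG run in capitals.
Ms4a4c brightest probe: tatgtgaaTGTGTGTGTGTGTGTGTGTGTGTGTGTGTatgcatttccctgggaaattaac
Ms4a4c other probe: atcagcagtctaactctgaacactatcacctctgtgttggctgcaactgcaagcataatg
Samhd1 brightest probe: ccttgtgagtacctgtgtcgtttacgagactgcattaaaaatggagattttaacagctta
Samhd1 spanning probe: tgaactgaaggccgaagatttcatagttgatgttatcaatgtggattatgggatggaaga
The run covers 29 bases, and 52 of 55681 probe sequences on the array (0.0934%) hold a run of 20 or more. Over all 50 passing probes of the group, 48 rose and 0 fell without added salt, and 49 rose and 1 fell with it. The rises include the dimmer Ms4a4c probe. Of all tested genes, 28.7% rose and 35.3% fell without added salt, and 30.5% rose and 41.8% fell with it. These shares are over genes, and the share over all passing probes is not given.

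**Figure D3:**
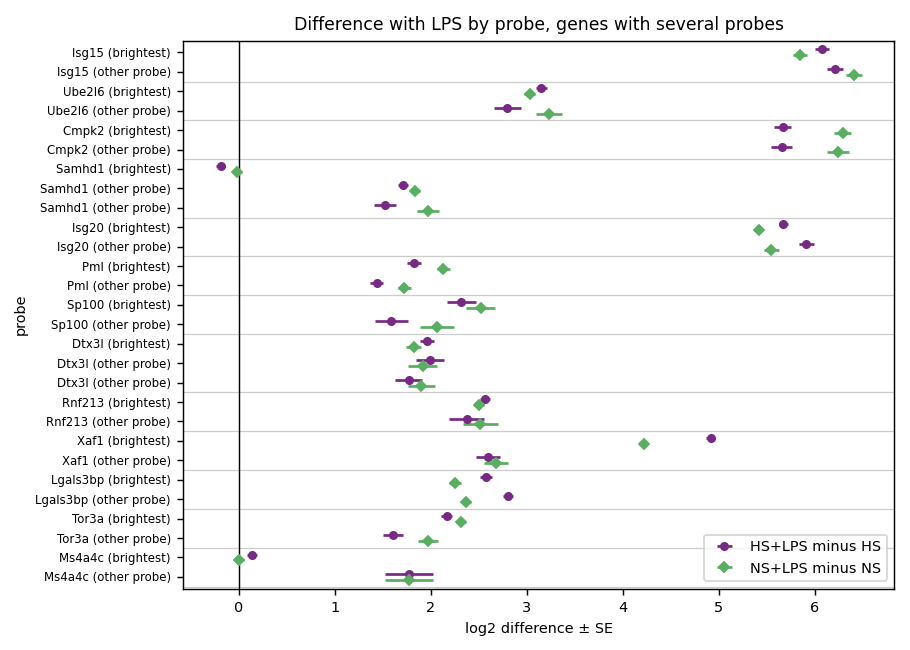
Log2 difference with LPS, with its SE, for each passing probe of the 13 antiviral genes that have several; circles are HS + LPS minus HS and diamonds NS + LPS minus NS. The probes of Samhd1, Ms4a4c and Xaf1 lie furthest apart, with the brightest Samhd1 and Ms4a4c probes near 0, and the other Ms4a4c probe was not well above background on any HS or NS array.

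Basal tone was compared in HS against NS cells, which share a slide and a scan day. Without LPS, added salt lowered most of the group by a modest amount. Of the 35 tested genes, 21 fell (60%), 2 rose (5.71%) and 12 were not called, where 19.0% of all tested genes fell and 18.3% rose. The median log2 difference was -0.28, a level of 82.2% of that in NS cells, with genes between 36.7% and 125%, and the median over all tested genes was 0.017. In 22 genes every HS array lay below every NS array, and in 4 above, where 24.8% and 25.8% of all tested genes were so separated. A fall of at least 2-fold was measured for 2 genes, where 1.62% of all tested genes had one. These were Lgals9 and Mx1, and Mx1 was near background in HS cells.

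**Figure D4:**
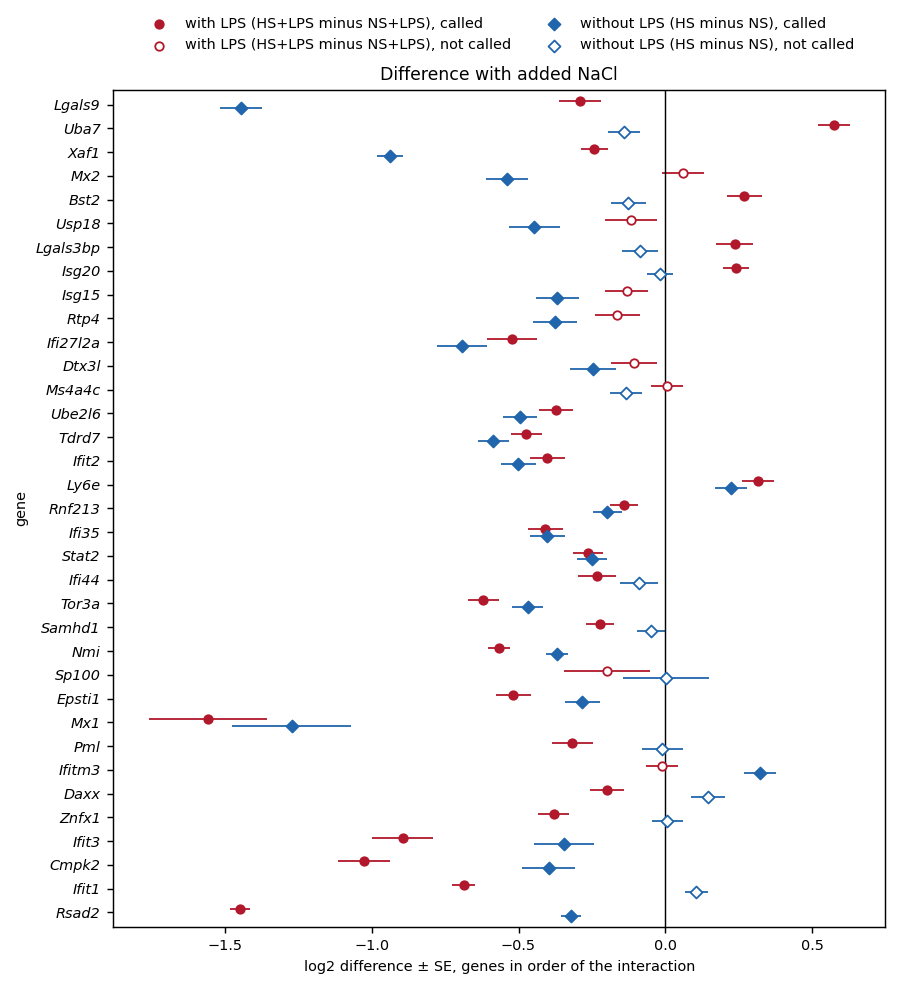
Log2 difference with added salt, with its SE, of the 35 tested antiviral genes, for HS + LPS minus NS + LPS and for HS minus NS, with filled symbols for called genes. Most points lie left of 0 in both comparisons, the Rsad2, Ifit1, Ifit3 and Cmpk2 points lie further left with LPS, and the Lgals9 and Xaf1 points lie further left without it.

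Lgals9, a galectin that binds glycans on immune cells, fell most, with 0.350, 0.407 and 0.342 in HS against 1.02, 1.03 and 0.934 in NS cells. It was 2.72-fold lower in HS (log2 difference -1.45 ± 0.071, limma adjusted p = 1.01e-06), with no overlap between the groups. Mx1 had a log2 difference of -1.27 ± 0.20 (adjusted p = 0.000822), but only 1 HS array was well above background, and the settings tried gave between -1.52 and -0.40. Xaf1, which binds an inhibitor of apoptosis, had 0.959, 1.01 and 1.03 in HS against 1.98, 1.93 and 1.85 in NS cells, a difference of -0.94 (adjusted p = 9.71e-07). Its other passing probe gave 0.024 (adjusted p = 0.905), so the fall of Xaf1 was seen in 1 of its 2 passing probes. Ifi27l2a had 30.7, 32.2 and 27.1 in HS against 53.95, 48.02 and 43.8 in NS cells, a difference of -0.69 (adjusted p = 0.000164), and again every HS array was the lower.

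Of the Isg15 system, Isg15 fell by 0.37 (adjusted p = 0.00326), Usp18 by 0.45 (adjusted p = 0.00284) and Ube2l6 by 0.49, while Uba7 differed by -0.14 and was not called (adjusted p = 0.0684). Rsad2 fell by 0.32 ± 0.035 (adjusted p = 8.26e-05) and Cmpk2 by 0.40. Ifit2 fell by 0.50, and Ifit1 differed by 0.10 and was not called (adjusted p = 0.0596). Ifit3 had a difference of -0.35 (adjusted p = 0.0240), but its HS and NS arrays overlapped and the call was lost when either NS array 2 or 3 was left out (adjusted p = 0.0904 and 0.0862) or either HS array 2 or 3 (0.0702 and 0.0680). Mx2 fell by 0.54, Tdrd7 by 0.59, Tor3a by 0.47, Ifi35 by 0.40, Rtp4 by 0.38, Nmi by 0.37, Epsti1 by 0.28, Stat2 by 0.25, Dtx3l by 0.25 and Rnf213 by 0.20. The Dtx3l call was lost without NS array 1 or 2 (adjusted p = 0.0987 and 0.0576) or HS array 1 or 3 (0.0903 and 0.0898). The Epsti1 difference turned to 0.014 with normexp background correction (adjusted p = 0.840). Of the genes with discordant probes, the third Samhd1 probe rose by 0.46 (adjusted p = 0.0125) while the spanning probe fell by 0.15 (adjusted p = 0.0463).

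The genes that rose with salt alone both encode surface or endosomal membrane proteins. Ifitm3 had 73.2, 72.1 and 75.5 in HS against 63.5, 58.3 and 55.1 in NS cells, a difference of 0.32 ± 0.054 (adjusted p = 0.00120). Ly6e had 153, 158 and 164 in HS against 140.5, 136 and 131 in NS cells, a difference of 0.22 (adjusted p = 0.00964). In both, every HS array lay above every NS array. The 3 nuclear body genes were not called in their brightest probes, with differences of -0.011 for Pml, 0.00072 for Sp100 and 0.14 for Daxx. The other Pml probe was lower, at -0.37 (adjusted p = 0.00201), and the mean of the Pml probes gave -0.19 (adjusted p = 0.00897). Daxx was called with an intensity trend in the variances (adjusted p = 0.0404).

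With LPS, added salt again lowered most of the group, beside a smaller set that rose. In HS + LPS against NS + LPS cells, 22 of the 35 genes fell (62.9%), 5 rose (14.3%) and 8 were not called, where 31.4% of all tested genes fell and 26.2% rose. The median log2 difference was -0.24, a level of 84.6% of that in NS + LPS cells, with genes between 34.0% and 149%, and the median over all tested genes was -0.043. In 26 genes every HS + LPS array lay below every NS + LPS array, and in 6 above, where 35.0% and 29.2% of all tested genes were so separated. The genes that fell at least 2-fold were Mx1, Rsad2 and Cmpk2, where 3.35% of all tested genes did. All of these differences carry the slide and scan day of the HS + LPS arrays.

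Mx1 was 2.94-fold lower (log2 difference -1.56 ± 0.20, limma adjusted p = 0.000116) and Rsad2 2.73-fold lower (-1.45 ± 0.035, adjusted p = 1.24e-08), from the values given above. Cmpk2 had 9.55, 10.2 and 9.31 in HS + LPS against 19.97, 18.6 and 20.6 in NS + LPS cells, a difference of -1.03 (adjusted p = 8.19e-06). Every HS + LPS array of these 3 genes read well under every NS + LPS array. Ifit3 fell by 0.89 (adjusted p = 5.31e-05), Ifit1 by 0.69 (adjusted p = 5.56e-07) and Ifit2 by 0.40, so all 3 Ifit genes on the list were lower. Stat2 fell by 0.26 ± 0.052 (adjusted p = 0.00160). Ifi27l2a fell by 0.52, Tor3a by 0.62, Nmi by 0.57, Epsti1 by 0.52, Tdrd7 by 0.47 and Ifi35 by 0.41. The remaining called falls lay between 0.14 and 0.39 in size: Lgals9, Znfx1, Ube2l6, Pml, Xaf1, Ifi44, Samhd1, Daxx and Rnf213. The Rnf213 call was lost without NS + LPS array 2 or 3 (adjusted p = 0.0553 and 0.104) or HS + LPS array 2 or 3 (0.0903 and 0.0803), and the Daxx call without NS + LPS or HS + LPS array 3 (0.0525 and 0.0525). The Xaf1 fall was not called when its probes were averaged (-0.15, adjusted p = 0.113).

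The Isg15 system parted here. Uba7 had 48.6, 44.1 and 49.2 in HS + LPS against 31.9, 30.3 and 33.2 in NS + LPS cells, the largest rise of the group, at 0.57 ± 0.055 (adjusted p = 1.54e-05), while Ube2l6 fell by 0.37. Isg15 itself differed by -0.13 (adjusted p = 0.149) and Usp18 by -0.12 (adjusted p = 0.273), neither called in the brightest probe. For Isg15 the arrays did not overlap, and the other probe gave -0.55 (adjusted p = 0.000369). The mean of the Isg15 probes gave -0.34 (adjusted p = 0.00329), and quantile normalization gave -0.28 (adjusted p = 0.00595), so whether Isg15 fell depends on the probe and the scaling.

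Of the membrane proteins, Bst2 had 219.8, 228 and 227 in HS + LPS against 185, 188 and 189 in NS + LPS cells, a rise of 0.27 (adjusted p = 0.00341). Ly6e had 238, 231 and 223 against 174, 183 and 199 in the same groups, a rise of 0.32 (adjusted p = 0.000777). Isg20 had 148, 139.6 and 143 in HS + LPS against 126, 119 and 119.8 in NS + LPS cells, a rise of 0.24 (adjusted p = 0.00115). In all 3 the HS + LPS arrays lay above the NS + LPS arrays without overlap. Lgals3bp also rose, by 0.24. Ifitm3, which rose with salt alone, read 251, 259 and 252 in HS + LPS against 261, 244 and 263 in NS + LPS cells, and these overlapped.

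The comparisons of salt without and with LPS share no arrays, so their calls, made in the brightest probe, can be set side by side. The fall was called in both for 16 genes (45.7%), where 10.6% of all tested genes had a fall called in both. A fall without LPS, with no call in either direction with it, was found for 5 genes (14.3%, against 5.60% of all tested genes). These were Dtx3l, Isg15, Mx2, Rtp4 and Usp18. A fall with LPS, with no call in either direction without it, was found for 6 (17.1%, against 18.6% of all tested genes). These were Daxx, Ifi44, Ifit1, Pml, Samhd1 and Znfx1. Ly6e rose in both, Ifitm3 was called as a rise only without LPS, and Bst2, Isg20, Lgals3bp and Uba7 only with LPS. Ms4a4c and Sp100 were called in neither. Other probes moved some genes between these sets. With LPS, Isg15 was called as a fall in its other probe as given above, Dtx3l in 1 of its 2 others at -0.45 (adjusted p = 0.0195), and Sp100 in its other at -0.56 (adjusted p = 0.0203), with a mean over the Sp100 probes of -0.38 (adjusted p = 0.00354). Without LPS, Pml was called as a fall in its other probe, and Xaf1 was called in neither comparison in its other probe. Without LPS, a call appeared when 1 array was left out for Ms4a4c (NS array 2, adjusted p = 0.0159), Bst2 (NS array 3, 0.0118) and Ifi44 (HS array 3, 0.0492), all as falls, and for Daxx as a rise (HS array 1, 0.0129). Calls that differ between comparisons do not show that the effects differ, which the interaction term tests.

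The interaction term, the salt difference with LPS minus the salt difference without it, was called for 17 of the 35 genes, where it was called for 36.3% of all tested genes. It was higher for 7 (20%) and lower for 10 (28.6%), where 17.5% and 18.8% of all tested genes were, so the share of higher calls lay near that of all tested genes. The median was 0.057, against -0.032 over all tested genes. Rsad2 had the most negative term, -1.13 ± 0.050 (limma adjusted p = 1.51e-06), followed by Ifit1 at -0.79 (adjusted p = 9.95e-06), Cmpk2 at -0.63 (adjusted p = 0.00397) and Ifit3 at -0.55 (adjusted p = 0.0149). In these 4 genes the salt difference with LPS was the more negative, and 3 of them (Rsad2, Ifit1 and Ifit3) hold the response element core in the upstream bases printed above. Among tested genes with a promoter window, the median term was -0.013 for the 9 with the core and -0.0059 for the 19 without it. It was called lower for 4 and higher for 2 of the 9, and lower for 6 and higher for 4 of the 19. A link between the core and the term was not tested. Lgals9, whose upstream bases hold the core as well, had the most positive term, 1.15 ± 0.10 (adjusted p = 3.57e-05), with 15.3, 16.4 and 15.3 in HS + LPS against 20.03, 18.4 and 18.99 in NS + LPS cells beside its larger gap without LPS. Uba7 followed at 0.72 (adjusted p = 0.000129), then Xaf1 at 0.70 (adjusted p = 4.8e-05) and Mx2 at 0.60 (adjusted p = 0.00160). Uba7 read 5.31, 5.28 and 4.94 in HS against 5.85, 5.73 and 5.55 in NS cells, where the order of the groups was the opposite of that with LPS. Xaf1 read 31.4, 30.5 and 29.1 in HS + LPS against 35.3, 35.6 and 36.5 in NS + LPS cells, a narrower gap than without LPS, but its other probe gave a term of -0.078 (adjusted p = 0.761). Stat2, with a term of -0.013 ± 0.073 (adjusted p = 0.905), was not called. Mx1 had -0.29 ± 0.29 (adjusted p = 0.459), the widest error of the group. Its term was called with normexp background correction (-1.13, adjusted p = 1.15e-05). The Ifit3 term was not called with quantile normalization (adjusted p = 0.0545) or in the deposited value table (0.0515). The HS + LPS slide and scan day enter every one of these terms.

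The pathway upstream of the group was read from a list of 29 genes of interferon production, reception and restraint, of which 28 were tested. Of these, 16 rose and 6 fell in NS + LPS against NS cells, where 28.7% and 35.3% of all tested genes did, and 14 rose and 10 fell in HS + LPS against HS cells, where 30.5% and 41.8% did. Ifnb1, the interferon beta gene, was not well above background on any HS or NS array. It was at least 26.4-fold higher in HS + LPS than in HS cells and at least 25.1-fold higher in NS + LPS than in NS cells, where the bound sets the bright group against the lowest signal well above background. Irf7, the factor that amplifies interferon transcription, rose by 6.82 with and 6.11 without added salt, and the cytokine signalling inhibitor Socs3 rose by 2.71 and 3.30. Ifnar1 fell by 0.82 and 1.09 in the same comparisons.

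With salt and LPS, 7 pathway genes rose and 15 fell in HS + LPS against NS + LPS cells, where 26.2% and 31.4% of all tested genes did. Ifnb1 had 1.27, 1.33 and 1.32 in HS + LPS against 1.05, 0.836 and 0.978 in NS + LPS cells, a rise of 0.46 ± 0.10 (limma adjusted p = 0.00265). Irf7 had 57.3, 63.1 and 58.6 in HS + LPS against 48.2, 45.5 and 46.7 in NS + LPS cells, a rise of 0.35 (adjusted p = 0.0122), and Tbk1 rose by 0.69. For Ifnb1 and Irf7 every HS + LPS array was the higher. In the same comparison 22 of the 35 antiviral genes fell, Rsad2, Ifit1, Ifit3 and Mx1 among them, 5 rose and 8 were not called. Of all tested genes 31.4% fell and 26.2% rose there. The kinase Ikbke fell by 0.82, the inhibitor Socs1 by 0.69 and the factor Irf1 by 0.55, and Irf9, the partner of Stat2, fell by 0.27.

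With salt alone, 9 pathway genes fell and 4 were called higher in HS against NS cells, a count of rises that was 2 with the other normalizations tried, where 19.0% of all tested genes fell and 18.3% rose. The falls were led by Ikbke at -0.75 and Ifnar1 at -0.73, and Irf9 and Socs1 each differed by -0.45. Among the rises were the kinase Jak2 at 0.48 and the adaptor Traf3 at 0.24. Irf7 differed by -0.36 (adjusted p = 0.0163), and this call was lost without HS array 1 (adjusted p = 0.0582). One of the 4 was Ifnb1, which was below background in both groups, so no fold is given. In the interaction, 5 pathway genes were called higher and 8 lower, where 17.5% and 18.8% of all tested genes were. Among the 13 were Irf7 at 0.71 (adjusted p = 0.00351), Tyk2 at 0.43, Socs3 at -0.59 and Tlr4 at -0.43.

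The 2 members that did not pass the filter were Ddx60, an RNA helicase, and Ms4a6b. Ddx60 was well above background on 1 HS array only, and Ms4a6b on 1 HS + LPS array only. No difference is given for either gene, and both are left out of every count above.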

How the data were processed

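Total RNA of RAW264.7 cells was hybridised to one-colour (Cy3) Agilent arrays, and the deposited scanner files hold processed intensities from Agilent Feature Extraction 10.7.3.1, per the file headers, already corrected for background by that software. The flags for outlier spots and for signals well above background were used as the authors deposited them (values of 0 and 1). The deposited value table holds the authors' processed intensities on a linear scale, with a median of about 28.8 in every column by a method not given in the sources used here, and served as an alternative.

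The members and lists were chosen with earlier results of these data known. Control spots were left out, which kept 59305 spots per array, then flagged outliers were left out and repeated spots averaged, which left 55671 probes. Log2 processed signals were set against the 75th percentile of each array. A probe passed the filter if some group had it well above background on each of its 3 arrays. The brightest passing probe stood for each gene, which left 13733 genes. Genes were compared with limma 3.58.1 in R 4.3.3 (lmFit and eBayes, group means, 8 residual degrees of freedom), with Benjamini-Hochberg adjustment and a threshold of 0.05, for 4 pairs of groups and the interaction. No probe was saturated, and precision is limited by the number of arrays. The fit was tested on simulated data. Values on every array are given for Isg15, Ifit1, Rsad2, Stat2, Usp18 and Mx1 and for the up to 4 largest rises, falls and interaction terms per comparison. Pathway genes are named up to 3 each way per comparison. Irf9, and Irf7 under salt alone, were named beyond these after their values were seen. Whether replicate numbers mark pairs is not stated, and the fit treated the arrays as unpaired. Same-numbered arrays deviated from their group means with a correlation of -0.080 to 0.12. With 3 arrays a group, these correlations cannot exclude pairs. Promoter windows come from RefSeq (GRCm38.p6) and probe positions from the scanner files (mm9), and the builds were not mixed. Some genes of the lists are not reported here.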

Additional observations from a re-analysis of the deposited data

Results flagged for a closer look

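The effect of salt differed between LPS-treated and untreated cells, by the interaction term of the limma fit, for 17 of the 35 tested antiviral genes, where 36.3% of all tested genes had such a difference. The terms are log2 differences, the salt difference in HS + LPS against NS + LPS cells minus that in HS against NS cells. The negative ones were Rsad2 at -1.13, Ifit1 at -0.79, Cmpk2 at -0.63, Ifit3 at -0.55, Znfx1 at -0.39, Daxx at -0.34, Ifitm3 at -0.33, Pml at -0.31, Epsti1 at -0.23 and Nmi at -0.20. Ifitm3 stands apart in this list, since its term reflects a rise with salt at rest and no call with LPS. The positive terms were Isg20 at 0.26, Lgals3bp at 0.32, Bst2 at 0.39, Mx2 at 0.60, Xaf1 at 0.70, Uba7 at 0.72 and Lgals9 at 1.15. Every term uses the HS + LPS arrays, which have a slide and a scan day of their own, so the interaction and that slide cannot be told apart. The Pml term was lost without NS array 1 or 3, HS array 1 or 2, or HS + LPS array 2 (adjusted p = 0.0612 to 0.0741), and the Epsti1 term without any array but HS array 2 or HS + LPS array 3 (0.05001 to 0.107). The Epsti1 term was -0.0014 with cyclic loess (adjusted p = 0.988) and -0.085 with quantile normalization (0.492). A term was gained without 1 array for Isg15 (NS array 3), Usp18 (NS or HS array 3), Ms4a4c (NS array 2) and Samhd1 (NS + LPS or HS + LPS array 1), with adjusted p = 0.0117 to 0.0462. In the other passing probe of Xaf1 the term was -0.078 (adjusted p = 0.761).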

How the results depend on the processing

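The 33 rises in NS + LPS against NS cells were called in every setting, as were 33 of 35 calls in HS + LPS against HS cells, 24 of 27 in HS + LPS against NS + LPS cells, 19 of 23 in HS against NS cells and 13 of 17 interaction terms. The settings covered background correction, normalization, the filter on dim probes, the choice of probe, the variance model, the arrays fitted, the slide and single arrays left out. The fit on the shared slide alone covered only HS against NS and NS + LPS against NS cells. No setting can separate HS + LPS from its own slide and scan day, so calls that use those arrays were not tested for it. The median over the antiviral genes in HS against NS cells (-0.28) was -0.23 with normexp background correction, -0.37 with quantile normalization, -0.34 with cyclic loess and -0.37 in the deposited value table. In HS + LPS against NS + LPS cells it was -0.34, against -0.24, when a gene's probes were averaged. In NS + LPS against NS cells (2.52) it was 2.44 with normexp and 2.59 with cyclic loess. In HS + LPS against HS cells (2.87) it was 2.53 with normexp, 3.00 with quantile, 3.09 with cyclic loess, 2.99 in the deposited table, 2.58 with no filter and 2.72 with probes well above background on all 12 arrays, and the count of falls was 0, not 1, with cyclic loess and with averaged probes. The median of all tested genes in that comparison moved from -0.11 to 0.032 with cyclic loess. The median interaction (0.057) turned to -0.011 with normexp and to -0.013 with averaged probes. The cause of these changes was not tested. Directions that turned for single genes were Epsti1 in HS against NS cells (0.014 with normexp), and, with averaged probes, Ms4a4c in HS + LPS against NS + LPS cells (-0.43) and Samhd1 in NS + LPS against NS (1.27) and HS + LPS against HS cells (1.01), where the other probes enter the mean. Leaving out 1 array at a time gave medians of -0.31 to -0.26 for HS against NS, -0.27 to -0.24 for HS + LPS against NS + LPS, 2.50 to 2.68 for NS + LPS against NS, 2.82 to 2.92 for HS + LPS against HS and 0.024 to 0.090 for the interaction. The replicate block left 21 falls and 2 rises in HS against NS cells, 21 and 5 in HS + LPS against NS + LPS cells, 33 rises in each LPS comparison, and 7 higher and 8 lower interaction terms. Whether same-numbered arrays are pairs is not stated. With the replicate block the calls of Rnf213 in HS + LPS against NS + LPS cells, Ms4a4c in HS + LPS against HS cells and the Pml and Epsti1 interactions were lost. Low signal limits Mx1 in HS cells, Ifnb1 without LPS, Ddx60 and Ms4a6b.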

Other observations

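The salt differences without and with LPS, which share no arrays, can be set against each other across the 35 antiviral genes. They had a Pearson r of 0.43 and a Spearman rho of 0.42, where all 13733 tested genes had 0.47 and 0.36. The values are across genes, which are not independent replicates and share the scaling of their arrays.

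Among the 28 tested genes with a promoter window, the 9 with the response element core had a median rise with LPS of 4.72 in HS + LPS against HS cells and of 4.27 in NS + LPS against NS cells. The 19 without it had 2.56 and 2.48 in the same comparisons. With salt, the genes with the core had medians of -0.29 in HS + LPS against NS + LPS cells and -0.32 in HS against NS cells, and those without it -0.23 and -0.14. These medians describe the lists and were not tested. The STAT-type motif (TTC, any 3 bases and GAA) was found in the windows of 6 of the 30 genes (20%), against 9.55% of all genes with a window.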
